A study of Mus musculus with 29 samples.

Results

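Binding of the glucocorticoid receptor (GR) in wild-type mouse liver was compared between 2 states in which the receptor is occupied by a ligand: the evening, at 6pm, and the morning after 24 h of prednisolone. The comparison used 4 of the 29 samples of the series, which are the GR ChIP-seq peak list and the GR ChIP-exo border list of each state, and 15 samples of the series had a list. Peaks of the ChIP-seq lists were matched where they overlapped by at least 1 bp. The prednisolone list held 4304 peaks and the 6pm list 14270, out of 107997 peaks in all ChIP-seq lists of the series. The ChIP-exo lists held 49189 borders after prednisolone and 54636 at 6pm.

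The animals of both states were males of 12 weeks with an intact receptor (GR+/+), litter-mates of mice with the GRdim mutation, back-crossed to BALB/c and kept on a 12 h light cycle. Tissue at 6pm was taken when the dark phase began and came from untreated mice. Treated mice carried subcutaneous prednisolone pellets at 12 mg/kg for 24 h, and their livers were collected at 6am, when the light phase began. The states therefore differed both in the drug and in the clock time, and the contributions of these cannot be told apart in this comparison. GR was precipitated with antibodies from Pierce and from Santa Cruz. Each list is 1 pool of 2 replicates, so each state is 1 measurement, no p-value is given, and the 95% intervals in parentheses cover the counting of peaks or borders only. In whole liver, binding in fewer cells and less binding per cell cannot be told apart.

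GR is a nuclear receptor that moves to the nucleus on binding a glucocorticoid and attaches to DNA either as a dimer on a palindromic response element, on single hexamer sites, or beside other factors. Mice are active at night, and their own glucocorticoid, corticosterone, is highest around the start of the dark phase. Prednisolone is a synthetic agonist given as a drug. C/EBPβ, whose lists are used below, is a liver transcription factor often bound next to GR, and GRdim is a receptor mutation known to impair dimerization on DNA. In ChIP-exo an exonuclease trims the precipitated DNA up to the crosslinked protein, so that a border on each strand marks where digestion stopped.

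The ChIP-exo libraries held 54.7 M tags after prednisolone and 43.1 M at 6pm, as the tags of the borders and their RPM (reads scaled to the size of the library) give. Listed borders held 2.87% and 3.27% of these tags. Borders on the mitochondrial genome took 30.5% of the listed tags after prednisolone and 5.21% at 6pm, and the nuclear borders summed to 19956 and 30996 RPM. For the ChIP-seq libraries no depth is given in the sources used here. RPM is relative to the whole library, so these differences stand beside every comparison of border signal between the states, and their part in it was not tested.

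The prednisolone list was mostly contained in the 6pm list. Of the 4304 prednisolone peaks, 3814 were listed at 6pm (88.6%, 87.6 to 89.5) and 490 were not (11.4%). The 6pm list was 3.32 times as long, and 10456 of its peaks (73.3%) had no prednisolone peak, so 26.7% (26.0 to 27.5) were found after prednisolone. The 3814 pairs were one to one, with a median offset of 14 bp between the centres of the 200 bp peaks and an upper quartile of 27 bp. The remaining text calls the 3 groups shared, prednisolone-only and 6pm-only peaks. The authors' score, by which each list is sorted and for which the sources used here name no unit, started at 2.03 in the prednisolone list and 2.01 in the 6pm list. Binding below that floor is not listed, so a peak missing from a list can be a weak one.

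Whether a 6pm peak was found after prednisolone went with its score, while prednisolone peaks were found at 6pm at nearly any score. In 5 equal parts of the 6pm list from the highest to the lowest scores, 76.9%, 32.0%, 13.3%, 7.18% and 4.31% of peaks were found after prednisolone. The same parts of the prednisolone list were found at 6pm in 93.6%, 89.3%, 89.3%, 85.5% and 85.4% of cases. The strongest regions of either state were nearly always present in both. Of the 100 highest-scoring prednisolone peaks, 1 was absent at 6pm, and of the 100 highest-scoring 6pm peaks, 0 were absent after prednisolone. The order at the top differed: 53 regions were among the 100 highest of both lists, and with the 6pm list shortened to the length of the prednisolone list 64.1% (62.6 to 65.5) of peaks were shared.

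**Figure D1:**
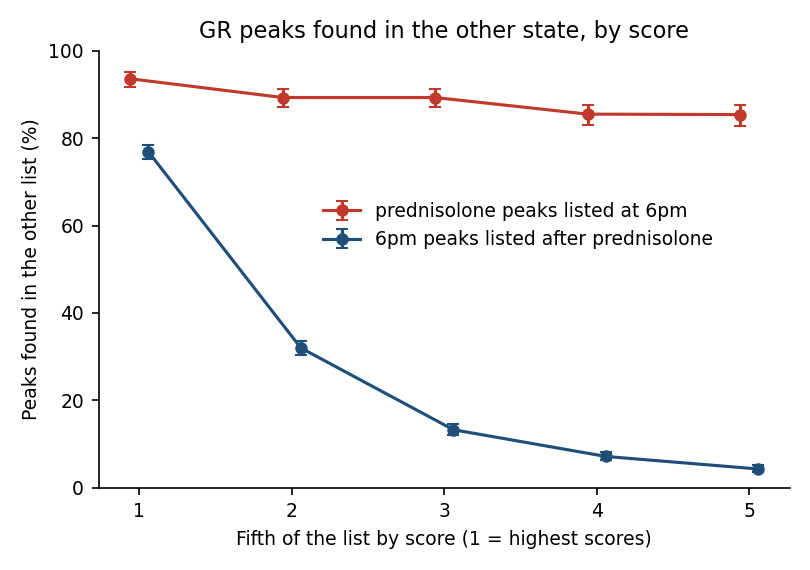
Share of GR peaks that overlap a peak of the other list (percent, vertical axis) in 5 equal parts of each list by score (horizontal axis, 1 = highest), for prednisolone peaks (red) and 6pm peaks (blue), with Wilson 95% intervals that cover counting only. The red points stay between 85.4% and 93.6%, and the blue points go from 76.9% to 4.31%.

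Shared regions held high 6pm scores. Their median score at 6pm was 5.92, against 2.92 for 6pm-only peaks, and 25.8% of them reached 8, against 0.583% of 6pm-only peaks. After prednisolone the contrast was smaller, with a median of 2.96 for shared and 2.66 for prednisolone-only peaks. These groups were formed by presence in lists with a lowest score, so the medians describe them and are no test. Within the shared pairs the 2 scores correlated only in part, with Spearman's rho of 0.50 across regions, which share animals and libraries and are not independent. Both scores are printed side by side since their scales need not be the same: 12.5% of pairs (477) had the higher number after prednisolone.

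The region with the joint highest prednisolone score lay on mm9 at chr2:167670164-167670363 and scored 25.41 after prednisolone and 25.47 at 6pm. Its summed ChIP-exo signal, the RPM of all borders centred inside the 200 bp, was 98.4 in the prednisolone library and 96.2 at 6pm. The other region with a score of 25.41, chr7:71041852-71042051, scored 26.16 at 6pm, with 106 and 77.1 RPM. Both regions stood at the top in either state. The region next in rank, chr16:93335679-93335878, stood out by its difference: it scored 21.13 after prednisolone and 12.83 at 6pm, with 43.5 and 13.4 RPM. The highest 6pm score, 26.35, belonged to chr4:150059310-150059509, which scored 20.42 after prednisolone and whose signal was 59.7 RPM after prednisolone and 85.8 RPM at 6pm. On chromosome 17, chr17:28649752-28649951 scored 19.14 after prednisolone and 22.44 at 6pm, with almost equal signals of 43.5 and 40.8 RPM.

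**Figure D2:**
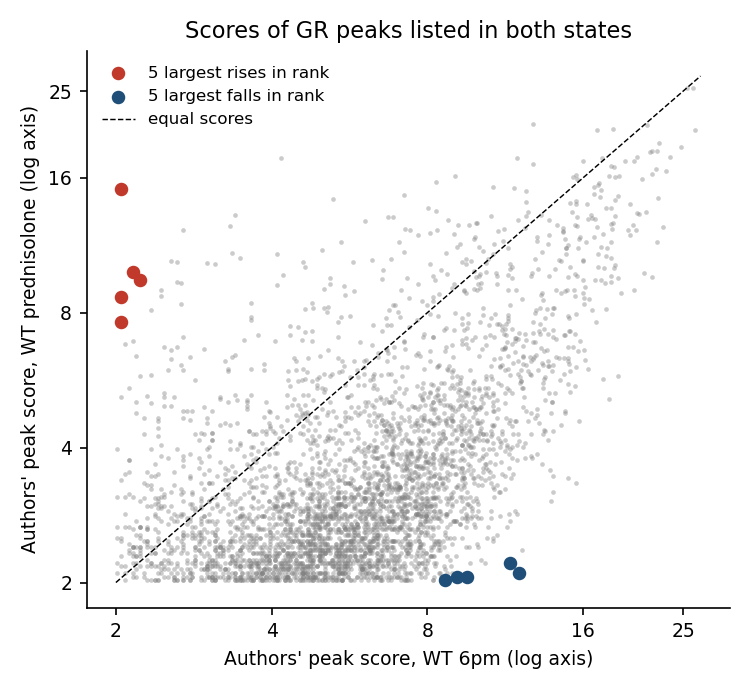
Authors' score of each of the 3814 shared GR regions at 6pm (horizontal, log axis) and after prednisolone (vertical, log axis), with the line of equal scores dashed. Most points lie below the line, since 12.5% of pairs have the higher score after prednisolone, and the 5 regions with the largest rise (red) and fall (blue) of rank sit at the upper left and lower right.

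To compare the order of the regions rather than the scores, each shared pair was ranked within the 3814 pairs in either list and the percentiles were subtracted. The rank was over 25 percentile points higher after prednisolone in 668 pairs (17.5%) and over 25 points lower in 655 (17.2%). The 5 largest shifts in each direction were taken among pairs in the upper part of at least 1 list. The largest upward shift was that of chr17:56432415-56432614, which scored 15.09 after prednisolone and 2.05, close to the floor of the list, at 6pm. It held 17 borders with 28.9 RPM in the prednisolone library and no listed border at 6pm. The next, chr9:51060731-51060930, scored 9.87 and 2.16, with 16.3 RPM after prednisolone and 2.09 at 6pm. Among these 5 regions the prednisolone scores were 7.62 to 15.09 and the 6pm scores 2.05 to 2.23. None of the 5 was in the GR list of untreated 6am livers, in any of the 3 GRdim GR lists, or in the C/EBPβ lists of 6pm and 6am, and 3 of them had a C/EBPβ peak after prednisolone. Over all shared prednisolone peaks, 82.6% were in the 6am GR list and 53.4%, 74.4% and 52.5% in the GRdim lists (prednisolone, 6pm, 6am). C/EBPβ was found at 79.4% after prednisolone, 87.1% at 6pm and 81.1% at 6am. The 5 were picked for their shift in rank, with 6pm scores near the floor, so the counts only describe them.

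The shifts in the other direction were at regions with high scores at 6pm and scores near the floor after prednisolone. The largest was at chr1:182209867-182210066, with a score of 2.10 after prednisolone and 12.02 at 6pm and with 0.841 and 10.8 RPM. It was followed by chr4:44079894-44080093, which scored 2.06 and 9.54. The 5 regions scored 2.03 to 2.21 after prednisolone and 8.66 to 12.02 at 6pm. All 5 were in the 6am GR list and had C/EBPβ peaks at 6pm and at 6am, and 4 of the 5 were in the GRdim 6pm list. These counts are near the shares over all shared 6pm peaks, of which 82.6% were in the 6am GR list, 87.3% had C/EBPβ at 6pm, 81.3% had it at 6am and 74.5% were in the GRdim 6pm list.

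ChIP-exo, an experiment of its own on the same states, gave a similar order. Across shared regions, the score and the summed border RPM of the same state had a rho of 0.81 after prednisolone and 0.88 at 6pm, and the shift in rank and the log2 ratio of RPM had a rho of 0.67. These are descriptions across regions that share a pool of tissue. In 5 equal groups from the most lowered to the most raised rank after prednisolone, the median log2 ratio of prednisolone to 6pm RPM was -1.90, -1.25, -0.73, -0.18 and 0.98. The score-based order and the border signal thus moved together.

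The 490 prednisolone-only peaks were of modest score, but most had borders of their own library. A prednisolone border lay in 92.4% (89.8 to 94.5) of them and a 6pm border in 30.2% (26.3 to 34.4). Their median summed RPM was 1.65 in the prednisolone library, next to 1.54 at shared peaks, and 0 at 6pm, next to 2.74 at shared peaks. The 148 peaks with a 6pm border had a median of 0.417 RPM there, so where 6pm signal was listed it was low. A score of at least 4 was reached by 81 of the 490 and a score of at least 8 by 15.

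Few of them had a 6pm peak just beyond the overlap: in 8.37% a 6pm peak was centred within 500 bp, and the median distance to the nearest was 14244 bp. The prednisolone-only peaks also stood more alone in their own list, since 27.3% (23.6 to 31.5) had another prednisolone peak within 10000 bp, compared with 40.2% (38.7 to 41.8) of shared peaks. They made up 8.44% of the prednisolone peaks of chromosome 14 at the lowest and 18.2% on X at the highest, where 6 of 33 peaks were concerned.

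The highest-scoring prednisolone-only peak, rank 80.5 of its list by a tied score of 12.87, lay at chr16:93913136-93913335. It held 18 prednisolone borders with 21.1 RPM and no border of the 6pm or the 6am library. At chr11:83211222-83211421 the score was 12.12, with 20.2 RPM after prednisolone and no 6pm border. At chr6:88012499-88012698, also with 12.12, the signal was 17.4 RPM after prednisolone and 0.510 RPM at 6pm. These regions had nearly all their listed signal in 1 state. The further peaks among the 10 highest were at chr10:80454259-80454458, chr19:21673380-21673579, chr1:170285393-170285592, chr15:55599857-55600056, chr3:105973652-105973851, chr6:6192151-6192350 and chr7:134076308-134076507, with scores from 11.37 down to 9.38. All 10 were absent from the 6am GR list, from the 3 GRdim lists and from the C/EBPβ lists of 6pm and 6am. Absence from these lists was common in the whole group. Over all 490 prednisolone-only peaks, 8.78% were in the 6am GR list and 10.2%, 7.35% and 7.14% in the GRdim lists (prednisolone, 6pm, 6am). C/EBPβ was found at 21.0% of them at 6pm and at 19.0% at 6am. A C/EBPβ peak after prednisolone was found at 9 of the 10, with scores of 2.12 to 7.61, and the exception was the chromosome 16 region. The share was 46.1% over all 490 and 67.3% among the 55 in the highest-scoring of the 5 parts of the list. The 10 were picked for their scores, so their counts only describe them.

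The GR list of untreated livers taken at 6am, the clock time of the treated ones, also seldom held these peaks, though 6am borders were frequent. Of the 490, 43 (8.78%) were in the 6am GR list and 220 (44.9%, 40.6 to 49.3) held a 6am border. A 6pm border was held by 30.2%, and the 6am ChIP-exo list was longer than the 6pm one, with 66573 borders. There were 230 (46.9%, 42.6 to 51.4) that were not in the 6am list and held no border of the 6pm or 6am library. Of shared peaks, 82.6% were in the 6am GR list, a difference of -73.8 points (-76.3 to -70.7) for prednisolone-only minus shared. Over all prednisolone peaks the share was 74.2%. The groups were formed by presence in the 6pm list, also of untreated livers, so this difference describes them and is no test.

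The 10456 peaks of 6pm alone were mostly weak in ChIP-exo as well, and many kept listed signal after prednisolone. A 6pm border was present in 70.2% (69.3 to 71.0) of them, a prednisolone border in 43.1% (42.1 to 44.0), and a border of neither library in 21.3%. Borders of both strands were found in 33.3% at 6pm and in 14.1% after prednisolone. The median summed signal was 0.371 RPM at 6pm and 0 after prednisolone, and among the 4506 peaks with a prednisolone border it was 0.293 RPM there. The nearest prednisolone peak was a median of 51752 bp away. Signal of the absent state was listed more often here than at prednisolone-only peaks, with a difference of -12.9 points (-16.9 to -8.58) for prednisolone-only minus 6pm-only. When a border of at least 20 tags was required, the shares were 7.35% and 3.90%, in the opposite order, and the libraries behind them differed in depth.

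The highest-scoring 6pm-only peaks still held listed borders after prednisolone, with less signal. The highest, chr11:3935627-3935826, scored 12.42 and held 16.4 RPM at 6pm and 1.39 RPM after prednisolone, in 4 borders. At chr9:65083590-65083789, with a score of 12.17, the signals were 10.2 RPM at 6pm and 0.219 RPM after prednisolone. At chr2:31320230-31320429, with 11.66, they were 11.2 and 3.38 RPM, and there a prednisolone peak was centred 296 bp away. All 10 of the highest 6pm-only peaks, with scores of 10.01 to 12.42, held prednisolone borders, and all 10 were in the 6am list and in the GRdim 6pm list. This was not so of the group as a whole, of which 23.8% (2485 of 10456) were in the 6am list and 40.2% in the GRdim 6pm list. The highest-scoring of the 5 parts of the list held 659 6pm-only peaks. Of these, 88.8% were in the GRdim 6pm list and 82.4% held a prednisolone border. The 10 were picked for their scores, so their counts only describe them. The highest-scoring one with no prednisolone border, chr10:5756619-5756818, scored 9.65 and held 6.31 RPM at 6pm and 3.89 RPM at 6am.

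**Figure D3:**
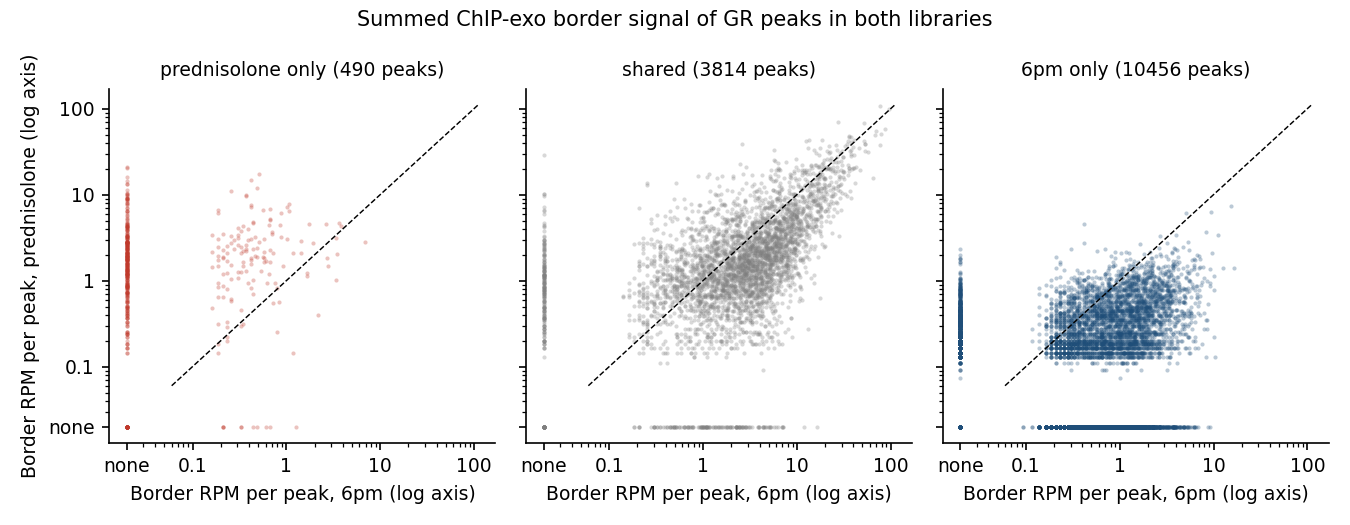
Summed RPM of the ChIP-exo borders in each GR peak in the 6pm library (horizontal, log axis) and the prednisolone library (vertical, log axis), 1 point per peak, with peaks without a listed border set at "none" and equal values dashed. Prednisolone-only peaks gather at no 6pm border (median 0 RPM against 1.65 RPM after prednisolone), shared peaks lie mostly below the line (medians 2.74 at 6pm and 1.54 after prednisolone), and 6pm-only peaks are low in both.

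At shared regions the border signal was lower after prednisolone. In 3459 pairs with borders in both libraries (90.7%), the median log2 ratio of prednisolone to 6pm RPM was -0.76, with quartiles of -1.65 and 0.28. The 14863 nuclear borders that were matched one to one between the libraries had a median of -0.73, close to the value over regions. At 696 matched mitochondrial borders the median was 0.52, in the other direction.

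Prednisolone borders were found at 6pm much less often than prednisolone peaks (88.6%). The 6pm borders were found after prednisolone slightly more often than 6pm peaks (26.7%). Borders are 10 bp and peaks 200 bp wide, so an overlap of 1 bp is a stricter match for borders. On the same strand and with at least 1 bp of overlap between the 10 bp borders, 32.7% of the prednisolone borders were listed at 6pm and 29.5% of the 6pm borders after prednisolone. The shares went with the number of tags: in the nuclear borders with the most tags, 1 of 5 equal groups, they were 62.3% and 64.5%, and in those with the fewest 11.0% and 7.36%. Of the mitochondrial borders, 85.4% and 85.3% were shared. Nuclear borders inside peaks of both lists were matched in 48.3% of cases after prednisolone and 49.9% at 6pm, and those in neither list in 11.8% and 14.1%.

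More prednisolone borders lay in 6pm peaks than in prednisolone peaks. Of the 48351 nuclear prednisolone borders, 65.4% were centred in a 6pm peak and 52.8% in a prednisolone peak. The excess came from 19.7% that lay in a 6pm peak alone, with a median of 11 tags, while 7.10% lay in a prednisolone peak alone, with a median of 17 tags. Of the 53788 nuclear 6pm borders, 77.2% lay in a 6pm peak and 41.7% in a prednisolone peak. A larger share of the nuclear prednisolone borders, 27.5%, lay in a peak of neither list, also with a median of 11 tags. Thus the ChIP-exo list of prednisolone reached regions that its ChIP-seq list did not contain, and the longer 6pm list held only part of them.

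The strongest nuclear border after prednisolone was on the minus strand at chr17:28655142-28655151, with 1919 tags or 35.1 RPM, and had 14.4 RPM at 6pm. Its peak scored 11.37 after prednisolone and 9.24 at 6pm. The strongest at 6pm was on the plus strand at chr14:21926019-21926028, with 28.0 RPM, and had 17.7 RPM after prednisolone. Of the 5 strongest of each library, all were listed in the other library. Among the 1395 matched nuclear borders with at least 100 tags in 1 library, the log2 ratio of prednisolone to 6pm ran from 3.60 to -4.21. The upper end was the minus-strand border chr7:119613616-119613625, with 2.25 RPM after prednisolone and 0.186 at 6pm, in a peak that scored 12.50 and 3.33. The lower end was the plus-strand border chr17:34136569-34136578, with 0.274 and 5.08 RPM. It lay in a 6pm peak that scored only 2.70 and in no prednisolone peak.

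The distance between the borders of a peak, from the strongest on the plus strand to the strongest on the minus strand within 100 bp of the centre, had 2 modes. One was at 10 to 12 bp and the other at 29 to 31 bp. In the prednisolone library, 13.0% of the 3407 prednisolone peaks with both borders fell into the wider mode, and at 6pm 6.24% of the 6487 peaks with both did. The range of 29 to 31 bp was taken from earlier results of these data. The modes were not spread evenly over the groups of peaks.

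Prednisolone-only peaks had the wider distance most often. In their own library 90 of 384 (23.4%, 19.5 to 27.9) had borders 29 to 31 bp apart, compared with 353 of 3023 shared peaks (11.7%, 10.6 to 12.9). The difference was 11.8 points (7.62 to 16.4). In the 5 parts of the prednisolone list by score from the highest, it was 8.06 (-3.56 to 21.6), 14.1, 17.2, 17.0 and 12.6 points, and the interval included 0 only in the highest part. The narrower distance was also more frequent, at 19.8% of prednisolone-only and 13.0% of shared peaks, a difference of 6.79 points (2.91 to 11.2), but not in the highest part, where it was -2.52 points (-11.9 to 10.4). These comparisons within parts of the list were added after the data were seen.

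At 6pm-only peaks both ranges held smaller shares than at shared peaks, and 29 to 31 bp did not stand out as a mode. The commonest distance between 16 and 60 bp was 30 bp with 52 peaks, but 33 bp held 50. In the 6pm library 127 of 3479 (3.65%, 3.08 to 4.33) had borders 29 to 31 bp apart and 4.31% had borders 10 to 12 bp apart. Shared peaks in the same library had 9.24% and 6.62%. The difference for the wider distance was -5.59 points (-6.82 to -4.40), and it lay between -2.93 and -17.9 points in the 5 parts of the 6pm list by score, of which the lowest held only 30 shared peaks with both borders. Prednisolone-only and 6pm-only peaks, each in its own library, differed by 19.8 points (15.8 to 24.3).

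**Figure D4:**
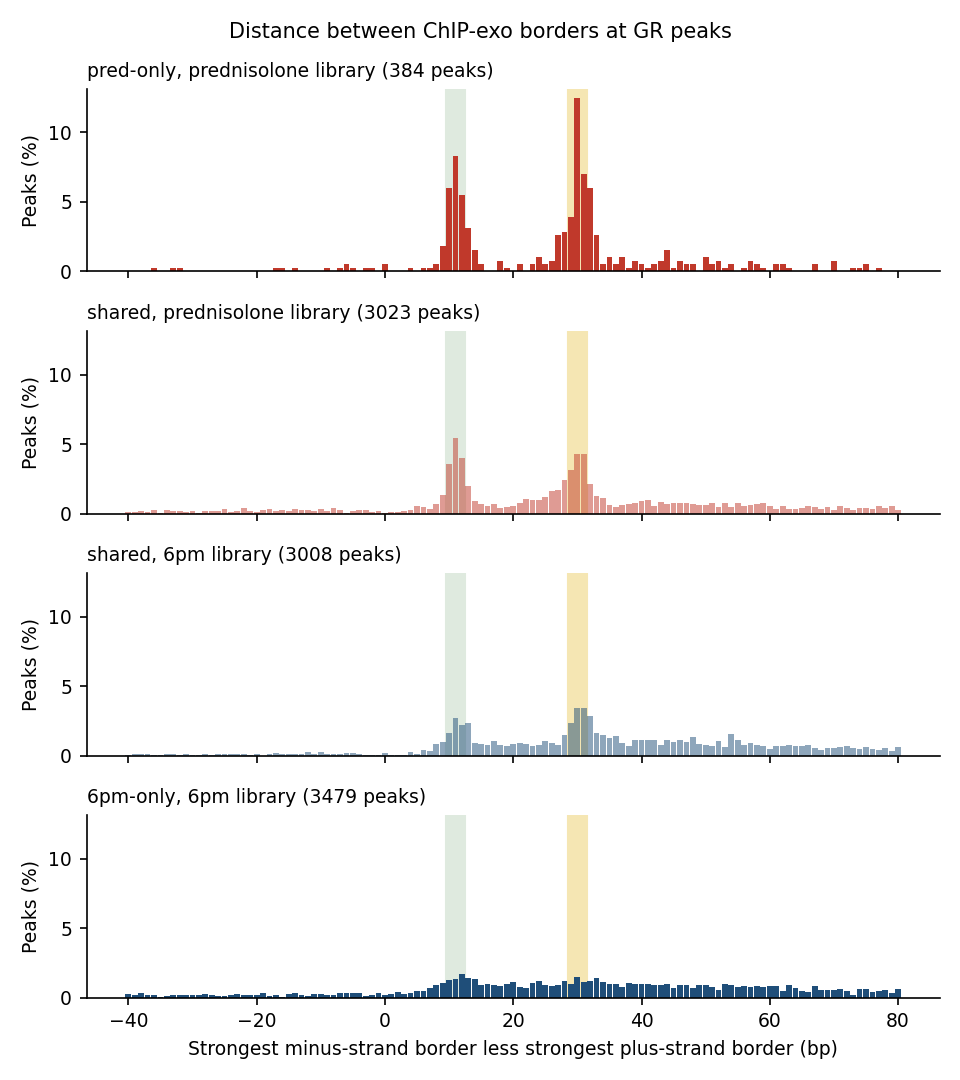
Distance between the strongest minus-strand and plus-strand ChIP-exo borders (bp, horizontal) as percent of the peaks with both borders (vertical), for prednisolone-only and shared peaks in the prednisolone library and shared and 6pm-only peaks in the 6pm library; shading marks 10 to 12 bp and 29 to 31 bp. The wider band holds 23.4%, 11.7%, 9.24% and 3.65% of the peaks from top to bottom.

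The same regions could be followed in both libraries at 2508 shared pairs with both borders in each. Borders 29 to 31 bp apart were found at 12.2% of them after prednisolone and 9.89% at 6pm, a paired difference of 2.27 points (0.867 to 3.68). The wider distance was present in both libraries at 114 pairs, after prednisolone alone at 191 and at 6pm alone at 134. For borders 10 to 12 bp apart the shares were 13.7% and 6.78%, a difference of 6.94 points (5.48 to 8.40). At these regions the states differed more in the narrower distance than in the wider one.

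The strongest border was often not the same base in the 2 states even where the region was. The strongest plus-strand borders lay within 2 bp of each other in 36.2% of the pairs, the minus-strand ones in 35.7%, and both in 18.2%. The region chr17:28649752-28649951 kept 30 bp in both libraries. At chr7:71041852-71042051 the distance was 11 bp after prednisolone and 79 bp at 6pm, and at chr2:167670164-167670363 it was 34 and 38 bp. The prednisolone-only regions named above on chromosomes 16 and 11 had 31 and 30 bp.

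Along the shift in rank among shared pairs, the wider distance followed the regions that ranked higher after prednisolone, in both libraries. In the 5 groups from lowered to raised rank, it was found at 5.25%, 3.57%, 14.4%, 13.8% and 19.8% of the pairs with both borders in the prednisolone library. In the 6pm library the shares were 5.55%, 4.81%, 11.3%, 12.6% and 14.2%. The untreated 6am library, which entered neither list, had 6.15% in the first group and 19.2% in the last. The groups also differed in score, with median prednisolone scores of 2.33, 2.78, 3.79, 3.08 and 3.83 and median 6pm scores of 6.98, 6.47, 7.60, 5.37 and 3.87, and the part of the score in this order was not tested.

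C/EBPβ lists, which were not used to form the groups, separated them as well. After prednisolone a C/EBPβ peak overlapped 75.7% of all prednisolone GR peaks, and at 6pm 83.2% of all 6pm GR peaks. Of the prednisolone-only peaks 226 (46.1%, 41.8 to 50.5) had one after prednisolone, and of the shared peaks 79.4% (78.1 to 80.7), a difference of -33.3 points (-37.9 to -28.7). In the highest-scoring part of the list the difference was -9.62 points (-23.1 to 1.71), and in the other parts -31.5 to -43.9 points. The lower share at prednisolone-only peaks was thus seen outside the highest scores.

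For 6pm-only peaks the C/EBPβ comparison varied with the score. In the 6pm C/EBPβ list they had 81.7% and shared peaks 87.3%, a difference of -5.57 points (-6.84 to -4.25). Within the 5 parts of the 6pm list, from the highest to the lowest scores, the difference was -0.861 (-3.16 to 1.06), 3.15 (0.693 to 5.80), 7.98 (3.79 to 12.7), 24.8 (18.0 to 31.8) and 26.5 points (17.6 to 35.2). The overall difference therefore had the opposite sign to that of 4 of the 5 parts. Low-scoring 6pm regions that were shared, 205 and 123 in the lowest parts, had C/EBPβ at 6pm in only 55.1% and 44.7% of cases.

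C/EBPβ listings differed between the states in the same direction as those of GR. At prednisolone-only peaks the C/EBPβ share was 21.0% in the 6pm list and 46.1% in the prednisolone list, with 128 peaks having C/EBPβ after prednisolone alone and 5 at 6pm alone, a paired difference of 25.1 points (21.1 to 29.1). At 6pm-only peaks it was 81.7% and 52.4%, with 44 after prednisolone alone and 3105 at 6pm alone, a difference of -29.3 points (-30.2 to -28.4). Shared peaks, counted at the prednisolone peak of the pair, lay in between, with 87.1% and 79.4% and a difference of -7.63 points (-8.74 to -6.52). Each C/EBPβ list is also a single pool with a floor of its own.

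Prednisolone-only peaks with the spaced borders had C/EBPβ less often than the others. Of the 90 with borders 29 to 31 bp apart, 24 had a C/EBPβ peak after prednisolone (26.7%, 18.6 to 36.6), and of the 76 with borders 10 to 12 bp apart also 24 (31.6%, 22.2 to 42.7). Of the 218 with another distance, 120 did (55.0%, 48.4 to 61.5). The intervals of the spaced groups and of the last did not overlap. Scores were alike, with medians of 2.98, 3.12 and 2.78, while the summed border signal was higher at the spaced peaks, with medians of 2.75, 2.68 and 1.73 RPM.

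The GRdim list of the same treatment held few of these regions. Of the prednisolone-only peaks 10.2% (7.83 to 13.2) were listed in GRdim after prednisolone, and of the shared peaks 53.4% (51.8 to 55.0), a difference of -43.2 points (-46.1 to -39.8). The 6pm-only peaks were listed there as seldom, at 9.13%. Prednisolone-only minus 6pm-only was 1.07 points (-1.37 to 4.12). The difference from shared peaks was present in every part of the list by score, from -29.4 points in the lowest to -51.8 points in the highest, where 1 of 55 prednisolone-only peaks was listed in GRdim. Of the prednisolone-only peaks with borders 29 to 31 bp apart, 3 of 90 were listed, of those with 10 to 12 bp 0 of 76, and of the others 32 of 218 (14.7%, 10.6 to 20.0). The 6pm-only peaks were in the GRdim list of 6pm in 40.2% of cases and shared peaks in 74.5%, but within the parts of the 6pm list by score this difference lay between -6.94 and 5.52 points.

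**Figure D5:**
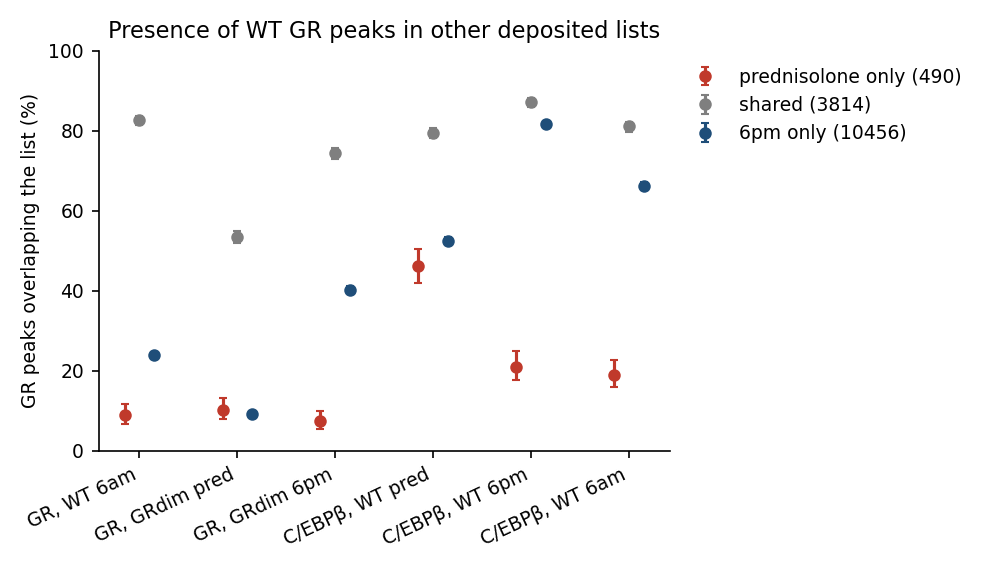
Share of prednisolone-only (red), shared (grey) and 6pm-only (blue) GR peaks of wild type that overlap a peak of 6 other lists (percent, vertical), with Wilson 95% intervals that cover counting only. Red points are below the grey and blue ones in every list except GRdim after prednisolone, where red is 10.2% and blue 9.13%. They stand at 8.78% in the GR list of 6am and 7.35% in that of GRdim at 6pm. In the C/EBPβ list after prednisolone they reach 46.1%, below blue at 52.4% and grey at 79.4%.

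GRdim itself offered the same pair of states. Of its 3208 prednisolone peaks, 2959 (92.2%, 91.3 to 93.1) were listed in GRdim at 6pm, so the share in wild type was 3.62 points lower (wild type minus GRdim, -4.94 to -2.28). With the 6pm list shortened to the length of the prednisolone list the shares were 69.2% (67.6 to 70.8) in GRdim and 64.1% (62.6 to 65.5) in wild type. The wild-type prednisolone list was also less well contained in the untreated 6am list, with 74.2% (72.9 to 75.5), than in the 6pm list, which was longer. At equal length the share found was 66.0% (64.6 to 67.4) at 6am and 64.1% at 6pm, with overlapping intervals.

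Along the shift in rank, presence in the other lists was lowest in the group with the most raised rank. From the group with the most lowered rank after prednisolone to that with the most raised, presence in the 6am GR list was at least 78.8% in the first 4 groups and 65.2% in the last. Presence in the GRdim prednisolone list was 60.6%, 63.8%, 64.7%, 47.1% and 30.8%, and in the GRdim 6pm list 91.3%, 88.1%, 84.5%, 69.5% and 38.3%. C/EBPβ after prednisolone was found at 81.1%, 84.1%, 85.1%, 82.2% and 64.7%, and C/EBPβ at 6pm at 95.9%, 95.4%, 94.9%, 87.5% and 61.5%. Presence in the prednisolone lists of GRdim and C/EBPβ rose slightly up to the middle group and fell after it. The last group was the lowest in each of these lists, and its median 6pm score of 3.87 was the lowest of the 5.

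Shared regions with the wider distance in both libraries were among the strongest. The 114 such pairs had a median score of 7.45 after prednisolone and 9.26 at 6pm, against 3.38 and 6.91 at the 2394 pairs without it in both. In the GRdim prednisolone list 35.1% (26.9 to 44.2) of them were found, against 60.5% (58.6 to 62.5) of the others, and in the C/EBPβ list after prednisolone 64.9% (55.8 to 73.1) against 80.3% (78.6 to 81.8). In the 6am GR list the shares were 94.7% and 91.2%. The 76 pairs with 10 to 12 bp in both libraries, counted among the others, were similar. Their median scores were 5.07 after prednisolone and 8.21 at 6pm. Of them, 32.9% were in the GRdim prednisolone list and 69.7% in the C/EBPβ list after prednisolone.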

How the data were processed

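GR ChIP-seq and ChIP-exo lists of wild-type liver after prednisolone and at 6pm were compared, with the other GR and C/EBPβ lists as references. Each was made by the authors from 2 pooled replicates, per the labels, and every depth, value and comparison rests on such pools. The submitters' processing notes name Bowtie, HOMER and mm9, and the sources used here do not give their roles, their versions or the threshold for a peak. Deposited ChIP-seq files give 200 bp intervals with the authors' score per peak, used only to describe, rank or filter within a list. Deposited ChIP-exo files give 10 bp borders with a count of tags and an RPM value, per the file headers. Tags are not known to be single molecules, so intervals cover counting only. GRdim ChIP-exo lists, RNA polymerase II and input samples were not analysed here.

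Peaks were matched by at least 1 bp of overlap and paired one to one by highest score. A border counted for a peak when centred in it, and distances used the border with the most tags per strand within 100 bp of the peak centre. Shares carry Wilson 95% intervals, differences Newcombe intervals, and paired differences their own. Lists and shared pairs were also divided into 5 equal parts by score or by shift in rank. The regions named were the 10 highest-scoring shared and single-list peaks, the 5 largest shifts in rank each way, the 5 strongest borders per library and the 5 most extreme RPM ratios each way at 100 tags or more, and a representative few are printed. The comparison, its groups and the border ranges were chosen with earlier results of these data known, and comparisons within the 5 parts were added after the data were seen. Planned motif and gene-list counts were not run, since no mm9 sequence or annotation was used here, so positions carry no gene name. On simulated data, overlaps of 20.0%, 50.0% and 90.0% of 4000 peaks and 30.0% of 2000 distances were recovered, and in 95.2% of 1000 draws a simulated difference lay inside its interval. The work was done in Python 3.11.15 with matplotlib 3.10.9, scipy 1.17.1, pandas 2.3.3 and numpy 2.4.6.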

Additional observations from a re-analysis of the deposited data

How the results depend on the processing

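Of the 37 alternatives, 30 moved a value beyond its counting interval. No difference or rho changed sign. Most of the values were shares, which cannot change sign. Prednisolone peaks found at 6pm were 81.9% with centres within 50 bp, 89.6% within 500 bp, 64.1% at equal list length and 83.3% at scores of at least 4 in both lists, and 6pm peaks found after prednisolone 24.7%, 27.7%, 64.1% and 18.9%. The rho of scores was 0.57 at equal length and 0.46 at scores of at least 4. The 6pm border share of prednisolone-only peaks was 7.76% with both strands required, 7.35% with 20 tags and 25.8% without peaks near a 6pm peak (500 bp), and the prednisolone border share of 6pm-only peaks 14.1% and 3.90% under the first 2. With 20 tags the order of the 2 groups was thus the opposite of that in the report. Prednisolone borders found at 6pm were 5.93% at the exact position, 45.0% within 20 bp, 57.5% at 20 tags and 31.8% on nuclear chromosomes, and the reverse shares 5.34%, 40.4%, 49.1% and 28.7%. The paired difference at 29 to 31 bp was 4.10 points at 20 tags on each border. The C/EBPβ difference of prednisolone-only peaks was -20.4 points at equal length and -26.5 in the higher-scoring 50% of the list. That of 6pm-only peaks was -3.78 with centres within 100 bp, -1.05 at equal length and -1.66 in the higher-scoring 50%. The GRdim difference was -49.2 in the higher-scoring 50%. Shorter lists or fewer borders enter these settings by construction, and no other cause was tested. No paired analysis was possible because each list is 1 pool of both replicates with no value per replicate. Libraries without replicate values and peaks below the listed floor limit every share of absent peaks.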

Other observations

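A few 6pm regions without a prednisolone border were also low or absent at 6am. Of the 5 highest-scoring ones, chr15:31183860-31184059 (mm9, 6pm score 8.40) was not in the 6am GR list, held 4.08 RPM at 6pm and 0.269 RPM at 6am, and was in the GRdim 6pm list with a score of 5.48. Of the prednisolone-only peaks, 315 of 490 (64.3%) held a prednisolone border and no 6pm border, and of the 6pm-only peaks 3727 of 10456 (35.6%) held a 6pm border and no prednisolone border. A further 897 of the 6pm-only peaks (8.58%) held a prednisolone border and no 6pm border. Further counts concern the persistence of single spacings. Of the 344 shared pairs with borders 10 to 12 bp apart after prednisolone, 76 had this distance at 6pm too (22.1%, 18.0 to 26.8). Of the 305 with 29 to 31 bp, 114 did (37.4%, 32.1 to 42.9). In the other direction the shares were alike. Of the 170 pairs with 10 to 12 bp at 6pm, 44.7% (37.4 to 52.2) had it after prednisolone too. Of the 248 with 29 to 31 bp at 6pm, 46.0% (39.9 to 52.2) did.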
